A study of Oryctolagus cuniculus with 57 samples.

Results

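Carbonic anhydrases were followed in the ileum of growing rabbits. The genes taken were CA1, CA2, CA4, CA12 and CA13, with every array probe carrying one of these symbols. All 5 genes had a probe, 12 probes in all. 11 of these probes were among the 33284 rows of the authors' normalized value table. The levels below were normalized anew from the scanner files, and that table served as an alternative setting. Of the 5 genes, 4 passed the filter on dim probes and were tested among 7961 genes in all. CA12 did not pass and is given only as a detection count. The genes were chosen by measured values of these data: CA1 was selected on its age change in the rabbits named FF below. Values of CA1 from that change, and from any contrast that contains it, are therefore descriptions with no test.

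Carbonic anhydrases are zinc enzymes that turn carbon dioxide and water into bicarbonate and a proton, and back again. In the gut epithelium this reaction feeds the exchangers that absorb sodium chloride and secrete bicarbonate, and in red cells it carries carbon dioxide to the lung. CA1, CA2 and CA13 act in the cytosol, CA4 is anchored to the outer face of the apical membrane, and CA12 spans the membrane with its active site outside the cell. CA1 is a major protein of mature red cells and is also a known product of the colon epithelium. CA2 is the fast and widespread form.

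RNA came from whole ileum tissue of commercial hybrid rabbits, taken at 35 days (weaning) or at 49 days, and each array held 1 rabbit. In the nest, FF pups could eat fecal pellets of unrelated does that had received no antibiotics, NF pups were kept from eating feces, and FFab pups were given pellets of unrelated does treated with the antibiotics tiamulin and tetracycline. At day 35 the groups used here held 10 rabbits of FF, 9 of NF and 10 of FFab, and at day 49 each treatment had 9. Pellets were given by nest and the labels name no litter, so rabbits were treated as independent. The arrays lay on 9 slides of 6 to 7 arrays, each slide held all 6 groups, and all were scanned on 1 day. FABP6, the ileal bile acid binding protein, was well above background on all 56 arrays analysed, and SLC10A2, the ileal bile acid transporter, on 51 of them. Values below are normalized log2 intensities, where 1 unit is a doubling, and levels of different probes cannot be compared. Their precision is limited by the number of arrays. In whole tissue, fewer cells of a type and less RNA per cell cannot be told apart.

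NF rabbit 78 of day 35 stood apart and was left out of the fit. Its CA2 level was 15.12, against at most 9.79 in the other 56 rabbits, a 40.4-fold gap to the highest of them. All 5 CA2 probes read between 14.99 and 15.21 in this rabbit. CA4 stood at 8.95, below the lowest other rabbit at 11.52, and CA13 at 9.19, below the lowest at 9.66. CA1 was at 8.99, inside the range of the others. Its FABP6 level was 9.32, against a median of 19.19 in the others, and its SLC10A2 was not above background. Low levels of these ileal genes were not particular to it. FABP6 ran down to 7.87 in the rabbits kept, and SLC10A2 was not above background in 5 of them. Together with these 5, another 2 rabbits had SLC10A2 at 5.68 or lower, while the remaining 49 had it at 8.50 or higher. The 7 rabbits with low SLC10A2 had FABP6 at 7.87 to 15.48, against 17.71 to 19.29 in the others, and 5 of them were FFab (3 at day 35, 2 at day 49), 1 was NF at day 35, 1 was NF at day 49 and 0 were FF. They stayed in the fit, and values without these 7, a choice made after the levels were seen, are given where they differ. With rabbit 78 in the fit, the age change averaged over treatments moved from -0.02 to -0.23 for CA2, from -0.08 to 0.04 for CA4 and from 0.10 to 0.15 for CA13, and none of these passed the test with or without it.

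The probes that carry the values are shown because they decide what each level can stand for. Each is 60 bases long and is written 5′ to 3′, with capitals for the bases it shares with another probe of the same gene (for CA2, with all of its probes). Positions are those that the scanner files give, on the rabbit build oryCun2, and exons of that build were not looked up here. Where a span is longer than the probe, the bases of the probe are not contiguous in the genome, as for a probe that crosses a splice junction.
CA1, probe read, minus strand, chr3:100978275-100981805: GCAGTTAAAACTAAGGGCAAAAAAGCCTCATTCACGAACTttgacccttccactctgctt
CA1, second probe, minus strand, chr3:100978295-100981825: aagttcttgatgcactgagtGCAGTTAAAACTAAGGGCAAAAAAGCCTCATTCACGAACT
CA2, probe read, plus strand, chr3:101114763-101117823: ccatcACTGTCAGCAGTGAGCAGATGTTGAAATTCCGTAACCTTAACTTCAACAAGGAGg
CA4, only probe, plus strand, chr19:26492014-26492073: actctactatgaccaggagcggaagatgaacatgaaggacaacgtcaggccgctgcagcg
CA12, only probe, plus strand, chr17:8916401-8916714: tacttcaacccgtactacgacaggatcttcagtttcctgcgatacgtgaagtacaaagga
CA13, probe read, plus strand, chr3:100913024-100913083: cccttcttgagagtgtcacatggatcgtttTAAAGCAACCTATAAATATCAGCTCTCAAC
CA13, second probe, plus strand, chr3:100913054-100922341: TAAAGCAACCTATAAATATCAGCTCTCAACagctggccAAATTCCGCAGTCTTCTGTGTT

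Both CA1 probes span 3531 bases and share 40 bases, so they are not independent readings. The 5 CA2 probes share 54 bases. CA13, CA1, CA3 and CA2 lie in that order along chromosome 3 within 204.8 kb. The longest run of bases that a CA1 probe shares with a probe of another carbonic anhydrase gene was 12. Probes were compared only with probes, so whether a CA1 probe binds RNA of another gene was not tested. Across the 56 rabbits the probes of a gene moved together, with r of 0.966 between the CA1 probes, 0.835 to 0.958 among the CA2 probes and 0.925 to 0.965 among the CA13 probes. The second CA1 probe was dimmer and well above background on 49 of 56 arrays. The probe read was above background on all 56.

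CA1 was the most variable member. Its SD within groups was 1.5, larger than that of 99.1% of the genes tested, against 0.35 for CA2, 0.57 for CA4, 0.30 for CA13 and a median of 0.33 over all genes. At day 35, CA1 in the 10 FF rabbits ran from 6.58 to 13.2 with a median of 7.63. In the 9 NF rabbits it ran from 5.46 to 13.6 with a median of 7.18, and in the 10 FFab rabbits from 5.18 to 8.06 with a median of 6.96. No FFab rabbit thus came above 8.06 at that age. The values above 10 in the other groups were those of 4 FF rabbits and 1 NF rabbit, and the next NF rabbit stood at 8.59. At day 49 the ranges were narrower, from 5.27 to 7.30 in FF (median 6.46), from 5.42 to 7.20 in NF (median 6.06) and from 5.28 to 6.94 in FFab (median 6.15). The number of day 35 rabbits above every day 49 rabbit of their treatment was 6 of 10 in FF, 4 of 9 in NF and 5 of 10 in FFab, and in each treatment the ages overlapped.

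**Figure D1:**
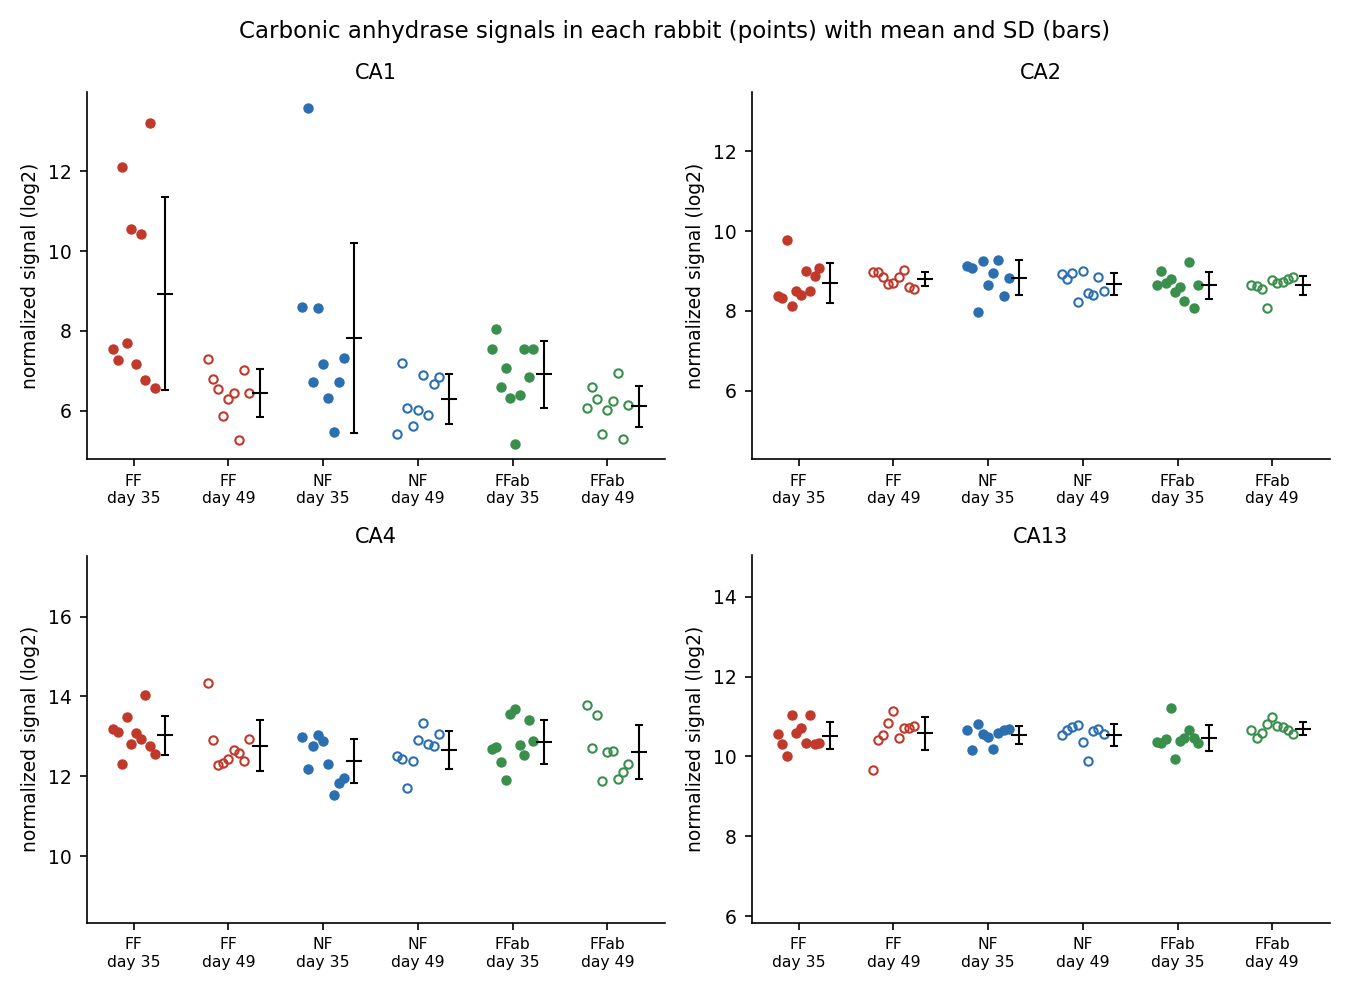
Normalized log2 level of CA1, CA2, CA4 and CA13 in each rabbit, by treatment and age, with 1 panel per gene and axes of the same length in log2 units. Points are rabbits, and the cross and error bar beside them are the group mean and SD. CA1 reaches 13.2 in FF and 13.6 in NF at day 35 and stays at or below 7.30 in every group at day 49, while the other 3 genes overlap broadly between all groups.

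By their means the groups ordered for CA1 as FF day 35 (8.94 ± 2.42, SD, n = 10), NF day 35 (7.83 ± 2.38, n = 9), FFab day 35 (6.91 ± 0.84, n = 10), FF day 49 (6.44 ± 0.61, n = 9), NF day 49 (6.30 ± 0.63, n = 9) and FFab day 49 (6.11 ± 0.52, n = 9). No neighbouring pair in this order differed by more than the larger SD of the pair. The high means rested on few animals. The widest gap between neighbouring rabbits lay between 8.59 and 10.43, and 5 of 56 rabbits were above it, of which 4 were FF and 1 was NF, all at day 35 and on 4 slides. The CA1 level was 13.59 in NF rabbit 79 and 13.22, 12.10, 10.56 and 10.43 in the FF rabbits, which are named below by these levels. The next gap, 1.54, was not much smaller than this one of 1.84, so the line between these 5 rabbits and the rest is a description.

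Red cell genes were not uniformly high in these 5 rabbits. ALAS2, the first enzyme of heme synthesis in red cell precursors, was at 7.55 in NF rabbit 79, rank 7 of 9 from the highest, and at 7.53 in the FF rabbit at 13.22, the lowest of its 10. The FF rabbits at 12.10, 10.56 and 10.43 had ALAS2 at 8.94, 7.88 and 8.70, at ranks 3, 7 and 5 from the highest. HBB2, a beta globin, ranked 6 of 9 in NF rabbit 79 and 10, 1, 7 and 3 of 10 in the FF rabbits from the highest CA1 down. SI, the sucrase-isomaltase of the enterocyte brush border, was between 14.44 and 15.21 in these 5 rabbits, at rank 6 or lower in its group in each, and lowest of its group in NF rabbit 79 and in the FF rabbit at 10.56. SLC10A2 ranked 5 of 9 in NF rabbit 79 and 6, 8, 2 and 4 of 10 in the FF rabbits from the highest CA1 down. The mean of 16 enterocyte genes was the lowest of its group in NF rabbit 79 and ranked 8, 9, 7 and 5 from the highest in the FF rabbits in that order. CD79B, a part of the B cell receptor, stood at 13.12 in NF rabbit 79, against a group median of 9.74. In the FF rabbits, from the highest CA1 down, it stood at 12.62, 13.80, 12.11 and 9.99, against a group median of 10.15. Among the other 51 rabbits CD79B ran from 7.0 to 12.20, and 1 of them reached 12.11. MS4A1, the B cell surface protein CD20, stood at 8.66 in NF rabbit 79 and at 8.63, 8.54, 7.46 and 5.93 in the FF rabbits in the same order. Among the other 51 it ran from 1.86 to 8.72, with 10 of them at or above 7.46. CD79B and MS4A1 are 2 of the 8 leukocyte genes tested and were not named by a rule set in advance. Both enter the mean given next, and single levels of the other leukocyte genes in these rabbits are not shown. The mean of 8 leukocyte genes was the highest of its group in NF rabbit 79 (9.41, group median 8.12) and ranked 2, 1, 3 and 7 from the highest in the FF rabbits in the same order (9.20, 9.5, 8.81 and 8.26, group median 8.36). The part of red cells, enterocytes and leukocytes in these CA1 levels was not tested.

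The mean level of CA1 was lower at day 49 than at day 35 in each treatment. The change in FF, for which CA1 was chosen, was -2.49 ± 0.67 (SE) on the log2 scale, a 5.63-fold difference. Averaged over treatments it was -1.61 ± 0.39, or 3.05-fold. In NF the change was -1.54 ± 0.69 and in FFab -0.80 ± 0.67, and neither passed the test over all genes (limma, adjusted p = 0.743 and 0.841). The intervals left room for much larger and for little change, from -2.93 to -0.15 in NF and from -2.15 to 0.55 in FFab. They use 1 spread for all 6 groups, an SD of 1.5, while the FFab rabbits had SDs of 0.84 at day 35 and 0.52 at day 49. The FFab interval is therefore wider than the spread of the FFab rabbits alone would give. Of all genes, 4.57% were called in FF (1.6% lower at day 49) and 3.54% averaged over treatments, at an adjusted p under 0.05 and a log2 change beyond 0.5, against 0.0251% in NF and 0.0879% in FFab. CA1 was the member called in FF and in the average, which follows from its choice. limma called 0 members in NF and 0 in FFab. In NF, CA1 had an unadjusted p under 0.05 (limma, 0.0307), as did 497 of all 7961 genes.

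The size of the CA1 change depended on the few high rabbits. The difference between group medians was -1.18 in FF, -1.12 in NF and -0.81 in FFab, closer together than the differences between means. A robust fit, which gives outlying rabbits less weight, put the change at -1.56 in FF, -1.02 in NF and -0.86 in FFab. Without NF rabbit 79 the NF change was -0.82. The NF and FFab changes differed by -0.74 ± 0.97, with an interval from -2.68 to 1.2 (limma, adjusted p = 1). The FF change minus that of NF was -0.96 ± 0.97 and minus that of FFab -1.69 ± 0.95, given here as descriptions. Within slides, the mean of the day 49 rabbits was below that of the day 35 rabbits on 9 of 9 slides, with differences from -4.17 to -0.12 and a median of -1.53. The second probe gave -2.63 ± 0.73 in FF, -1.64 ± 0.75 in NF and -1.22 ± 0.73 in FFab.

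CA2 showed no age change that passed the test. It ran from 8.13 to 9.79 with a median of 8.50 in FF at day 35, and from 8.56 to 9.02 with a median of 8.84 at day 49. In NF it ran from 7.99 to 9.29 (median 8.96) and then from 8.22 to 9.0 (median 8.80), and in FFab from 8.07 to 9.23 (median 8.66) and then from 8.06 to 8.85 (median 8.71). The day 35 rabbits enclosed nearly the whole day 49 range in each treatment, and in FF 6 of 10 of them lay below every day 49 rabbit and 2 above. The change averaged over treatments was -0.02 ± 0.09, with an interval from -0.21 to 0.17 (adjusted p = 0.935), and by treatment it was 0.10 ± 0.16 in FF, -0.16 ± 0.16 in NF and -0.01 ± 0.16 in FFab. A change of the size seen in CA1 lay far outside that interval.

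CA4, the apical membrane form, was bright on every array, at 11.52 to 14.34. FF rabbits ranged from 12.32 to 14.04 (median 13.02) at day 35 and from 12.28 to 14.34 (median 12.57) at day 49. NF rabbits ranged from 11.52 to 13.03 (median 12.30) and then from 11.71 to 13.33 (median 12.77), and FFab rabbits from 11.90 to 13.69 (median 12.75) and then from 11.89 to 13.79 (median 12.61). The median was lower at day 49 in FF and FFab and higher in NF, within overlapping ranges. The change was -0.27 ± 0.26 in FF, 0.28 ± 0.26 in NF and -0.25 ± 0.26 in FFab, and -0.08 ± 0.15 on average, with an interval from -0.38 to 0.22 (limma, adjusted p = 0.80).

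CA13, another cytosolic form, varied least among the 4 tested. Its levels ran from 10 to 11.04 (median 10.45) in FF at day 35 and from 9.66 to 11.14 (median 10.71) at day 49, and in NF from 10.17 to 10.80 (median 10.58) and then from 9.89 to 10.78 (median 10.65). In FFab it ran from 9.93 to 11.21 (median 10.42) at day 35 and from 10.47 to 10.99 (median 10.67) at day 49. In this treatment 8 of 10 day 35 rabbits lay below every day 49 rabbit and 1 lay above them. The FFab change was 0.24 ± 0.14 and did not pass the test (limma, adjusted p = 0.657). The changes in FF and NF were 0.06 ± 0.14 and 0.01 ± 0.14, and the average was 0.10 ± 0.08, with an interval from -0.06 to 0.26 (adjusted p = 0.46). A robust fit gave 0.14 for the average, past the threshold on p (adjusted p = 0.0434) but short of the minimum change of 0.5. The other 2 CA13 probes gave an average of 0.01 each, and -0.11 and -0.12 in FF, so neither the size nor the sign in FF was shared by the probes. By group means, CA2 ran from 8.84 ± 0.43 (SD, n = 9) in NF at day 35 down to 8.64 ± 0.23 (n = 9) in FFab at day 49, CA4 from 13.03 ± 0.48 (n = 10) in FF down to 12.38 ± 0.55 (n = 9) in NF, both at day 35, and CA13 from FFab at day 49, 0.24 above, down to FFab at day 35 (10.46 ± 0.32, n = 10). None of these genes had neighbouring groups in its order that differed beyond the larger SD of the pair.

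**Figure D2:**
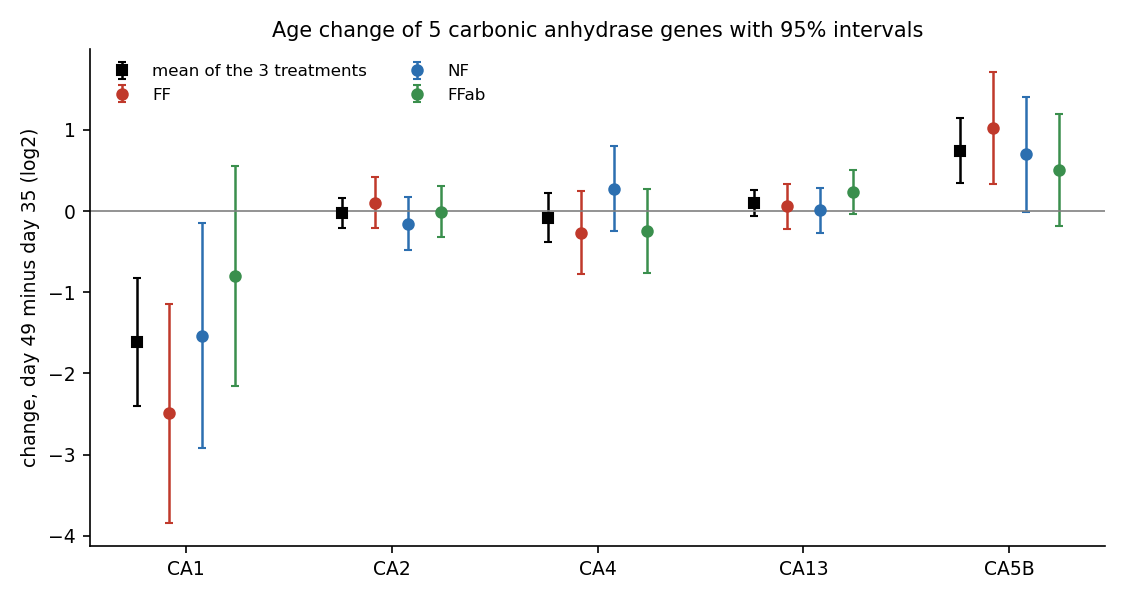
Change from day 35 to day 49 on the log2 scale for CA1, CA2, CA4, CA13 and CA5B, averaged over the 3 treatments (squares) and in FF, NF and FFab (circles), with 95% intervals from limma over 56 rabbits. CA1 lies below 0 in each treatment, from -2.49 in FF to -0.80 in FFab where the interval crosses 0, whereas CA2, CA4 and CA13 stay within 0.30 of 0. The intervals of a gene use 1 spread shared by all groups.

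The remaining carbonic anhydrases were hard to detect. CA12 was well above background on 2 of 56 arrays, so its level in ileum was not measured here. Of 11 other genes of the family, 4 had a probe: CA3, a cytosolic form of muscle, above background on 9 arrays, CA6, the secreted form of saliva, on 5, CA14, a membrane form, on 26, and CA5B, a mitochondrial form. Only CA5B passed the filter on dim probes. It rose from day 35 to day 49 by 0.75 ± 0.20 averaged over treatments (limma, adjusted p = 0.00744), with 1.03 ± 0.34 in FF (adjusted p = 0.0502), 0.70 ± 0.35 in NF and 0.50 ± 0.34 in FFab. Its level was low, between 3.22 and 7.07 in single rabbits, and its probe did not stand well above background in all of them. The number where it did at day 35 was 5 (FFab, n = 10), 6 (FF, n = 10) and 7 (NF, n = 9). By day 49 it was 8, 9 and 8 in that order, with n = 9 each. The size of the rise therefore rests in part on day 35 levels close to background. The call was lost with the deposited value table (0.37), without background correction (0.35), with another background model (0.18) and with another probe of the gene (0.30).

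Treatments were compared at each age to ask whether access to feces, or antibiotics given to the does, went with a different level. No member passed the test in any of the 6 comparisons, of which those with FF are only descriptions for CA1. The share of all genes called was 0.0377% between FF and NF at day 35 and 0.0126% between FF and FFab at that age, and limma called 0 genes for NF against FFab at day 35 and 0 in each comparison at day 49, where 149, 95, 187 and 147 genes had an unadjusted p under 0.05. At day 35, CA1 was higher in FF than in FFab by 2.02 ± 0.66 and than in NF by 1.1 ± 0.67. Both differences use the FF rabbits on which CA1 was chosen and are given as values only. NF exceeded FFab by 0.92 ± 0.67, with an interval from -0.43 to 2.27 (adjusted p = 1). By group medians these differences were 0.68, 0.45 and 0.22. At day 49 the CA1 differences were 0.15 between FF and NF, 0.33 between FF and FFab and 0.18 between NF and FFab, each ± 0.69. Those with FF are again values only. This SE comes from the spread shared by all groups (SD 1.5), while the SDs at day 49 were 0.61 in FF, 0.63 in NF and 0.52 in FFab. The largest difference among the other members was that of CA4 at day 35, 0.65 ± 0.26 higher in FF than in NF, with an interval from 0.14 to 1.16 and an adjusted p of 0.453 (limma). CA2 differed between treatments at an age by at most 0.19 ± 0.16 and CA13 by at most 0.15 ± 0.14.

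CA1 was then set against genes of red cells and of enterocytes, using each rabbit's deviation from the mean of its group, so that differences between groups play no part. Because 5 rabbits stood apart on CA1, values are given over the other 51, a choice made after the levels were seen. In these rabbits CA1 moved closely with HBB2, ALAS2 and BPGM. Pearson's r was 0.849 with HBB2 (Spearman's rho 0.86), 0.813 with ALAS2 (rho 0.822) and 0.699 with BPGM, which makes the 2,3-bisphosphoglycerate that lowers the oxygen affinity of hemoglobin (rho 0.716). Each of these had a permutation p of 1e-05, the smallest that 100000 permutations within groups can give, and an adjusted p of 0.00029 for r and 0.000232 for rho over the family of pairs of the 4 tested members with 13 red cell and 16 enterocyte genes. Over all 56 rabbits, with the 5 high ones included, r was 0.357 for HBB2, 0.204 for ALAS2 and 0.272 for BPGM.

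The coefficients were also taken without the most deviating rabbits and within slides. Without the 2 rabbits whose CA1 deviated most, r was 0.798 for HBB2, 0.764 for ALAS2 and 0.622 for BPGM. With slide means removed as well as group means it was 0.858, 0.845 and 0.797. Within single groups, r with ALAS2 ran from 0.701 in FF at day 49 to 0.936 in NF at day 35, and with HBB2 from 0.72 to 0.945. Among all 7960 other genes HBB2 and ALAS2 had the highest r to CA1, and these 3 genes were among the 4 beyond 0.6 in either direction, all of the red cell list. SCIN, a calcium-dependent actin-severing protein, was the highest outside that list at 0.591, and the lowest was ANKRD49 at -0.585. The middle 95% of genes lay between -0.384 and 0.337.

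**Figure D3:**
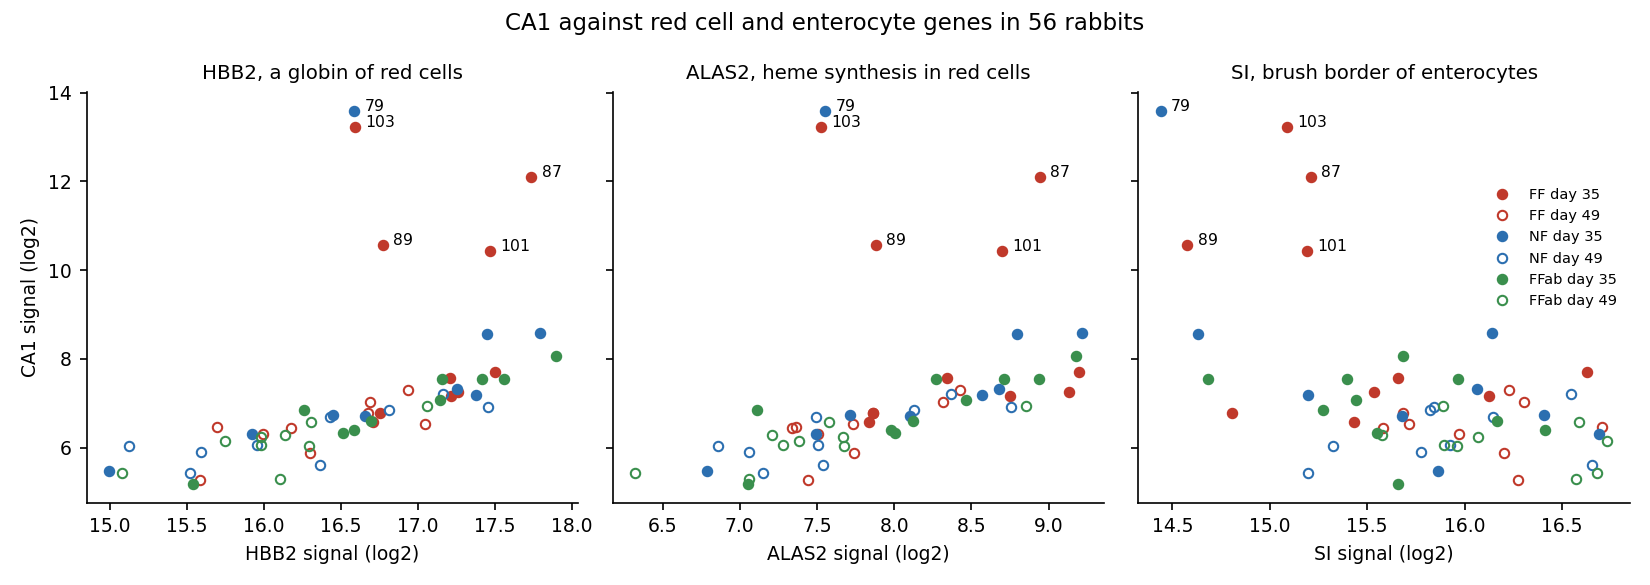
CA1 level in each of 56 rabbits against HBB2 (left), ALAS2 (middle) and SI (right), all normalized log2 intensities; colours are treatments, filled points day 35 and open points day 49, and numbers mark the 5 rabbits with CA1 above 10. The other 51 rabbits rise along a band with HBB2 and ALAS2 and show no such band with SI, and the 5 numbered rabbits lie above it. SI is 1 of 16 enterocyte genes, whose r to CA1 ran from -0.204 to 0.465.

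The likeness did not extend to the whole red cell list. Of 31 genes in it, 13 were tested, and 6 of these passed an adjusted p under 0.05 with CA1, all positive. HEMGN, a nuclear protein of red cell precursors, had r of 0.455 (adjusted p = 0.0106, rho 0.601), and HBQ1, a theta globin, 0.45 (adjusted p = 0.0259, rho 0.46). With slide means removed r was 0.282 for HEMGN and 0.588 for HBQ1, and without the 2 most deviating rabbits 0.423 and 0.422. Over all 56 rabbits it was 0.337 and 0.101. Among those that did not pass, EPB42, a protein of the membrane skeleton, had 0.256 (rho 0.405, adjusted p = 0.052), SLC4A1, the anion exchanger of the red cell membrane, 0.105, SPTB, a spectrin, 0.016, EPB41 -0.054, EPOR, the erythropoietin receptor, 0.017, FECH, the last enzyme of heme synthesis, -0.133 and TFRC, the transferrin receptor, -0.199. The median over the list was 0.256. With slide means removed SPTB moved to -0.41, TFRC to -0.36 and EPB42 to 0.09.

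Over the 16 enterocyte genes tested, r to CA1 ran from -0.204 to 0.465 with a median of 0.074. EPCAM, an epithelial adhesion protein, had r of 0.465 (adjusted p = 0.021) and SLC15A1, the peptide transporter, 0.442 (adjusted p = 0.025), but rho did not pass for either (0.412 with adjusted p = 0.052 and 0.388 with 0.0689). Without the 2 most deviating rabbits these were 0.325 and 0.341, with slide means removed 0.33 and 0.382, and over all 56 rabbits 0.244 and -0.135. TREH, the brush border trehalase, had r of 0.212, ALPI, intestinal alkaline phosphatase, 0.187 and SI -0.141. That the coefficients of red cell and enterocyte genes differ was not tested.

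**Figure D4:**
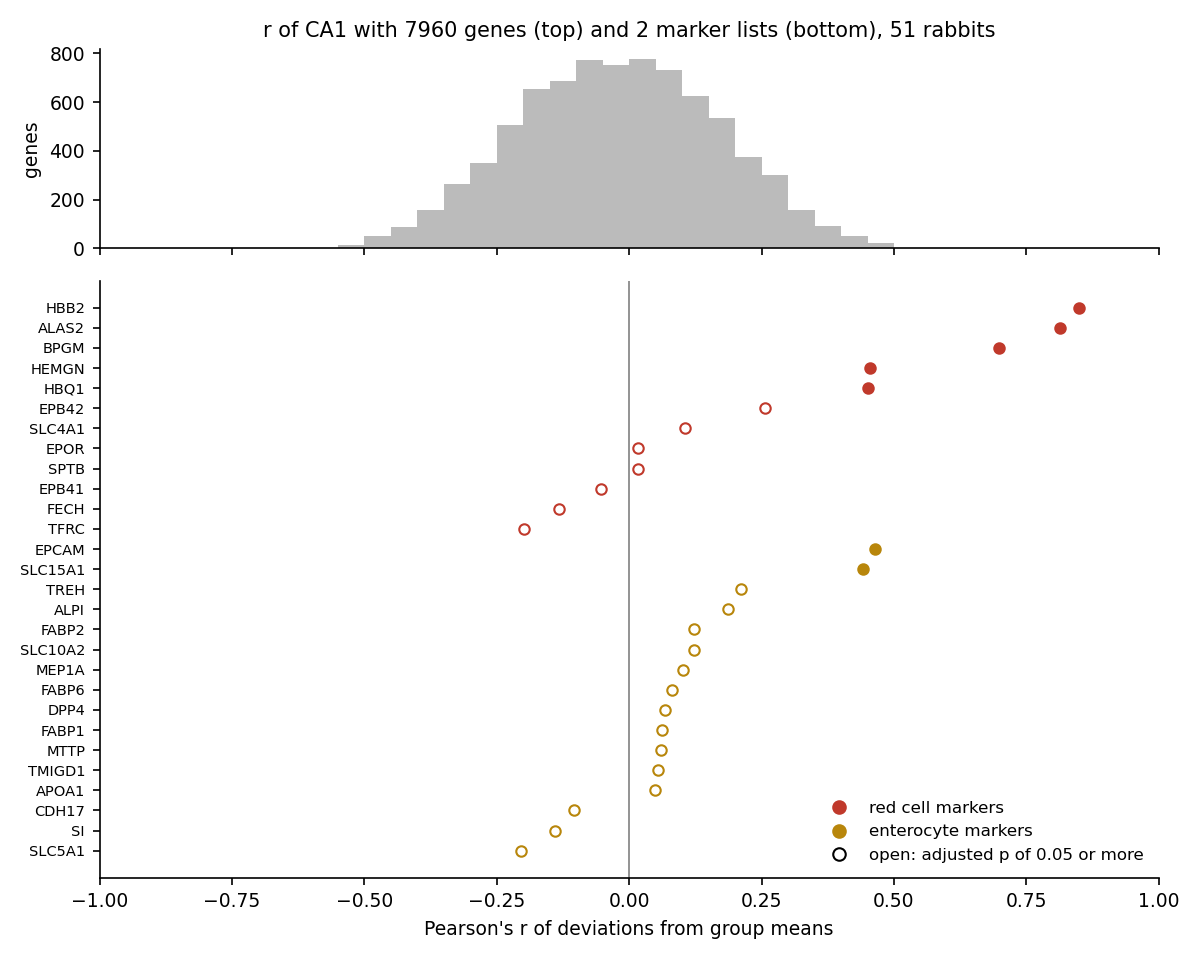
Pearson's r of CA1 with all 7960 other genes as a histogram (top) and with 12 of the 13 red cell genes tested and 16 enterocyte genes (bottom), from deviations from group means over 51 rabbits; filled points have an adjusted p under 0.05. HBB2, ALAS2 and BPGM lie from 0.699 to 0.849, beyond the bulk of the histogram, and the enterocyte genes lie from -0.204 to 0.465.

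Some of these red cell genes were also lower at day 49. HBB2 fell by 0.68 ± 0.17 averaged over treatments (limma, adjusted p = 0.00445), ALAS2 by 0.62 ± 0.17 (adjusted p = 0.00859) and EPOR by 1.55 ± 0.41 (adjusted p = 0.00656), while the median of the 13 red cell genes was -0.12. None was called higher, although TFRC at 0.32 ± 0.08 (adjusted p = 0.00331) and EPB41 at 0.24 ± 0.07 (adjusted p = 0.00755) passed on p and fell short of the minimum change of 0.5. BPGM, lower at -0.37 ± 0.09 (adjusted p = 0.00188), also passed on p and fell short of that minimum. In all, 4 of 13 genes were called lower, beside 1.09% of all genes, and a median over all genes of -0.01. The gene lists were chosen with earlier results of these data known, so such counts are descriptions. In FF, EPOR changed by -2.23 (adjusted p = 0.0366). ALAS2 and HBB2 stood at -0.67 and -0.78 there without passing. In FFab, where the CA1 difference was smallest, ALAS2 stood at -0.74 and HBB2 at -0.80, and in NF both stood at -0.45. In either treatment limma called 0 red cell genes. An unadjusted p under 0.05 (limma) was reached by 6 of 13 in FFab, beside 691 of all 7961 genes. In NF it was reached by 1 of 13, beside 497 of all genes. The mean of the 13 genes ran from 7.70 to 8.86 in FF at day 35 and from 7.71 to 8.18 at day 49, from 7.60 to 8.54 and then 7.53 to 8.53 in NF, and from 7.70 to 8.65 and then 7.59 to 8.17 in FFab. The part of red cell RNA in the age change of CA1 was not tested.

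Of the 16 enterocyte genes, 1 was called higher on average, ALPI at 0.74 ± 0.17 (limma, adjusted p = 0.00139), beside 2.45% of all genes. None was called lower, 4 of 16 had a lower mean level at day 49, and the median was 0.41. SLC5A1, the sodium-glucose transporter, DPP4, a brush border peptidase, SI and MEP1A also passed on p (limma, adjusted p from 0.00104 to 0.0278). Their rises, from 0.47 to 0.499, fell just short of the minimum change of 0.5. In FF 3 were called higher, namely ALPI by 1.13, DPP4 by 0.83 and SLC5A1 by 0.80, beside 2.98% of all genes. The lists for BEST4 cells (3 tested), goblet cells (4), smooth muscle (7), endothelium (5) and leukocytes (8) were also followed. None of their genes was called by limma in any treatment or on average. Averaged over treatments, 2065 of all 7961 genes had an unadjusted p under 0.05 (limma), and so did 5 genes of these lists. Of these, PECAM1 at -0.22 (adjusted p = 0.00448) and ESAM at -0.15 (adjusted p = 0.0497), both of endothelium, and KCNMB1 of smooth muscle at -0.21 (adjusted p = 0.00513) passed on p but were short of the minimum change of 0.5. Their part in the lower CA1 and red cell levels was not tested. The list medians averaged over treatments were, in that order, 0.20, -0.03, 0.03, -0.15 and 0.10.

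With CA2, CA4 and CA13, no red cell gene had a positive r that passed the permutation test. CA2 went the other way from several enterocyte genes. Over 56 rabbits 7 of 16 had a negative r that passed, led by MTTP, which loads lipid onto chylomicrons, at -0.531 (permutation test, adjusted p = 0.00325, rho -0.522), and FABP2 and FABP1, the intestinal and liver fatty acid binding proteins, at -0.513 (adjusted p = 0.0106) and -0.466 (adjusted p = 0.0124). MEP1A, SLC15A1, TREH and APOA1 followed at -0.462 to -0.415. Without the 2 most deviating rabbits these 7 lay between -0.456 and -0.322, and with slide means removed between -0.642 and -0.481. Without the 7 rabbits with low SLC10A2 they lay between -0.693 and -0.445. By rho MTTP, FABP1, FABP2 and TREH still passed and the other 3 did not. Over the 16 enterocyte genes r to CA2 ran from -0.531 to 0.24 with a median of -0.336. SLC10A2, TMIGD1 and FABP6 had positive r that did not pass, at 0.24, 0.191 and 0.189. With slide means removed these were 0.329, 0.331 and 0.283. EPOR had r of -0.444 to CA2 (adjusted p = 0.0351), but its rho of -0.343 did not pass (adjusted p = 0.11). CA4 had no marker that passed, SLC15A1 being nearest at 0.347 (adjusted p = 0.051). CA13 had r of 0.423 with TMIGD1, an epithelial adhesion protein, 0.38 with FABP6 and 0.308 with SLC10A2, all past 0.05 by r and none by rho (adjusted p = 0.275, 0.291 and 0.575). These rested on the rabbits with low SLC10A2, whose FABP6 was also low: without the 7 of them r was 0.013, -0.122 and -0.109. FABP6 levels otherwise lay close together, with a median of 19.19 and a highest level of 19.29. Quantile normalization gives probes of equal rank the same value, and the 4 FF rabbits with high CA1 all read 19.19. The narrow range therefore does not show a stable RNA level.

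The members showed little likeness to each other. None of their 6 pairs passed an adjusted p of 0.05, the largest being CA4 with CA13 at r of -0.301 and CA2 with CA13 at -0.299 (both adjusted p = 0.103), and CA1 had 0.151 with CA2, 0.226 with CA4 and -0.093 with CA13 over 51 rabbits. Among all genes over 56 rabbits, the nearest to CA2 were MCOLN2 (0.734), RIPK2 (0.704) and CUEDC2 (0.695), and the most opposed NR1I2 (-0.71), SND1 (-0.673) and SNX4 (-0.672). For CA4 they were PGM2 (0.642), GADD45G (0.635) and EREG (0.629), against RASD1 (-0.627), LOC100357412 (-0.613) and ANKRD37 (-0.54). For CA13 they were SLC25A24 (0.692), GRAMD1C (0.638) and ARHGAP18 (0.638), against RRP9 (-0.726), POLB (-0.675) and HEATR1 (-0.658). For CA1 the ranking over all 56 rabbits turned on the 5 high ones: its leading genes there, PLA2G1B, RGCC, HLTF, HPRT1 and TEX30, had r of 0.459, 0.261, 0.098, 0.217 and 0.064 in the other 51, and the most opposed, PUS10, ITGA3, MOB3B, STYK1 and ALDH9A1, had -0.494, -0.433, -0.363, -0.393 and -0.127. Each coefficient here is the extreme of 7960 genes and is a description.

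Transporters that use the protons and bicarbonate made by carbonic anhydrases were followed as a list of 26 genes, of which 19 had a probe and 13 were tested. SLC9A2, a sodium-proton exchanger, fell by 0.78 ± 0.19 averaged over treatments (limma, adjusted p = 0.0027), with -0.94, -0.73 and -0.66 in FF, NF and FFab. It was the 1 gene called of 13, beside 3.54% of all genes, and the list's median was 0.16. SLC26A3, the chloride-bicarbonate exchanger of the apical membrane, rose in FF by 0.61 ± 0.17 (adjusted p = 0.0197) and had 0.30 on average, below the minimum change of 0.5 (adjusted p = 0.0376). SLC4A4, the basolateral sodium-bicarbonate cotransporter, had 0.31 ± 0.11 (adjusted p = 0.0524), SLC4A7, another sodium-bicarbonate cotransporter, -0.40 ± 0.22 (adjusted p = 0.232), GUCA2A, the hormone guanylin, 0.27 ± 0.16 (adjusted p = 0.305) and SLC16A1, a lactate and butyrate transporter, 0.16 ± 0.10 (adjusted p = 0.328). In NF and in FFab limma called 0 genes of the list. An unadjusted p under 0.05 (limma) was reached by 1 of 13 in NF, beside 497 of all 7961 genes. In FFab it was reached by 3 of 13, beside 691 of all genes.

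**Figure D5:**
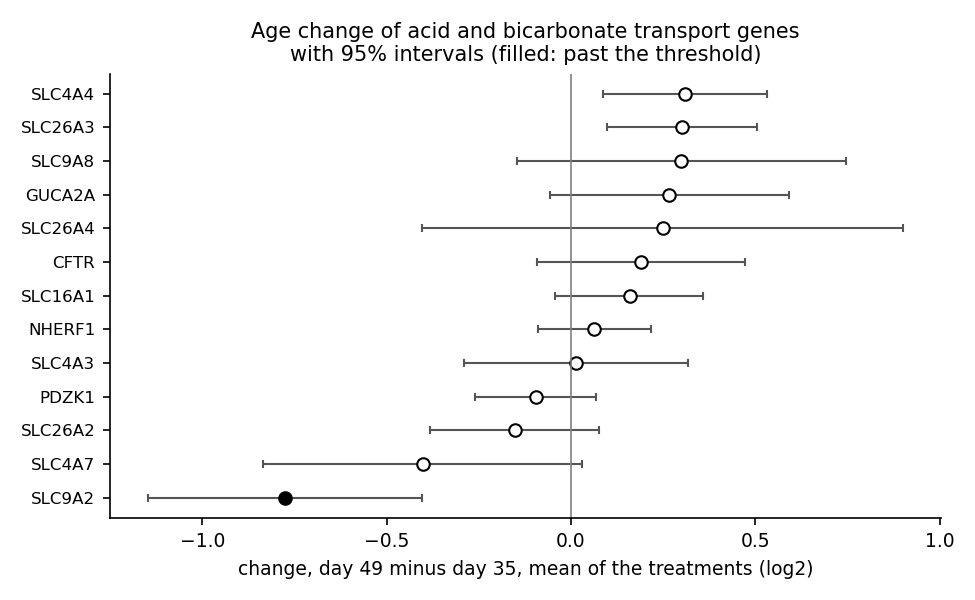
Change from day 35 to day 49, averaged over treatments, of 13 acid and bicarbonate transport genes on the log2 scale, with 95% intervals from limma; the filled point passed the test. SLC9A2 lies at -0.78, and the 12 other genes lie between -0.40 and 0.31.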

How the data were processed

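Single-colour Agilent rabbit arrays were read for 57 ileum samples. The authors deposited the scanner file of each array, with an intensity per spot, and their own normalized log2 table. The submitters' notes name Agilent Feature Extraction 10.7.3.1 and the file headers 10.10.1.1. Background-subtracted processed signals were averaged over the unflagged spots of each of 42089 probes, set to log2 and quantile normalized (limma 3.58.1, R 4.3.3). Probes with at least 50% of spots well above background in 75% of the arrays of a group were kept (31722), and each of 7961 named genes was read from its probe of median level. Names came from accessions and gene identifiers through RefSeq. The transcript that both CA1 probes carry matched no RefSeq entry here: 1 probe was named through the study's tables and the other through the same transcript, so the identity of CA1 rests on those tables.

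limma fitted 6 group means over 56 arrays, giving 13 contrasts with Benjamini-Hochberg adjustment over all genes. Likeness used 100000 permutations within groups (numpy 2.4.6, scipy 1.17.1). The members and gene lists were chosen with earlier results of these data known. Text names all members, the carbonic anhydrases with a probe, transport genes called or with the smallest adjusted p, markers called or most alike to CA1, and the genes most alike to each member. Other markers named, among them CD79B and MS4A1, lie outside this rule. Scripts were tested on simulated data. Alternatives covered the arrays, background, normalization, filter, slide, probe, weights and single rabbits. The depth of an array has no read count, and the number of arrays limits the precision. The values of 1 red cell gene are not reported here.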

Additional observations from a re-analysis of the deposited data

Results flagged for a closer look

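Over 30 sets of 1 gene and 1 group, each looked at for its lowest and its highest rabbit, 5 ends were flagged. At each of these a single rabbit lay farther from its neighbour than Dixon's test at 95% allows, a test that marks some groups by chance alone. CA1 of NF rabbit 79 at day 35 was 13.59, with the next rabbit at 8.59. CA2 of 1 FFab rabbit at day 49 was 8.06, with the next at 8.56. 1 FF rabbit at day 49 had the highest CA4 of its group, 14.34 against 12.94, and also the lowest CA13, 9.66 against 10.41. CA13 of 1 NF rabbit at day 49 was 9.89, with the next at 10.35.

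NF rabbit 78 of day 35, whose array took no part in the comparisons, held CA2 at 15.12, above every other rabbit, with CA4 at 8.95 and CA13 at 9.19, both below every other rabbit. Its ALAS2 and HBB2 levels, 9.56 and 18.25, were also above the highest of the others, 9.21 and 17.90. The source of these levels was not tested.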

How the results depend on the processing

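The CA1 changes, chosen on these data, are given as values. With the FF arrays alone the FF change was -2.49 with a larger SE of 0.78. Across settings it ran from -1.83 to -1.03 on average, from -2.63 to -1.18 in FF, from -1.80 to -1.02 in NF and from -1.22 to -0.53 in FFab. Leaving out 1 rabbit at a time gave -1.71 to -1.37 on average and -2.75 to -2.02 in FF, -1.83 to -0.82 in NF, lowest in size without rabbit 79, and -0.99 to -0.67 in FFab. The same step gave -0.055 to 0.021 for CA2, -0.15 to -0.04 for CA4, 0.08 to 0.14 for CA13 and 0.68 to 0.81 for CA5B. The change of CA2 averaged over treatments had the other sign with the deposited table (0.006), by group medians (0.077) and without the 7 rabbits with low SLC10A2 (0.014), and that of CA4 with all 57 arrays (0.036), and that of CA13 ran from 0.005 to 0.19. CA5B lost its call with the deposited table (0.37), the median signal (0.35), normexp (0.18) and another probe (0.30). Genes called on average numbered 282, 178 with normexp and 178 to 351 over all settings; in FF they were 295 to 452 beside 364. Over all 56 rabbits r of CA1 with ALAS2 was 0.204 and the median r with enterocyte genes -0.234, since the 5 high rabbits then enter; under the other settings r with ALAS2 stayed between 0.725 and 0.853. Blocking on slide, fixed or random, changed no call of a member. No paired analysis was possible because no rabbit number is shared between groups. The cause of these shifts was not tested otherwise.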
